A study of Mus musculus with 6 samples.

Results

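Notch pathway genes were followed in newborn mouse epidermis with and without Eed. The 10 genes were 3 receptors (Notch1, Notch2 and Notch3), 3 ligands (Jag1, Jag2 and Dll1), the DNA-binding factor Rbpj and 3 transcriptional repressors that Notch induces (Hes1, Hey1 and Heyl). They were chosen by gene symbol, for their place in the pathway, from the 24453 symbols of the count files. That choice was made with earlier results of these data known. All 10 had a row, and all 10 were among the 14700 genes with enough counts to be tested. RNA came from interfollicular epidermal cells of back skin on postnatal day 0, sorted as EpCAM-positive, Sca1-positive and α6-integrin-high. The 3 control libraries carry the genotype label Control, with no allele named, and the 3 Eed conditional knockout (cKO) libraries the label Eed-/-. Eed is needed for the activity of PRC2, the Polycomb complex that places the repressive methyl mark on lysine 27 of histone H3. The Cre driver, the deleted exons and the number of animals behind each library are not stated in the labels. Each p-value therefore measures only the spread between libraries, which may be partly technical.

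Notch signalling passes between neighbouring cells. A Jagged or Delta-like ligand on one cell binds a Notch receptor on the next, the receptor is cut by an ADAM protease and then by gamma-secretase, and its freed intracellular part enters the nucleus. There it joins Rbpj and a Mastermind-like protein and turns Rbpj from a repressor into an activator of Hes and Hey genes. In the epidermis Notch1 is known for promoting the step from basal to spinous (suprabasal) keratinocytes, while Notch3 and Heyl are also well known from the mural cells of blood vessels.

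Libraries held 20998149 to 29998531 counts, and 1 count was worth 0.0320 to 0.0484 CPM (counts scaled to a common library size by TMM, the trimmed mean of M-values). Eed itself was lower in every Eed cKO library (37.0, 33.7 and 29.2 CPM) than in any control library (45.1, 41.1 and 53.1 CPM), and the log2 difference of -0.48 ± 0.19 (SE) was not called (adjusted p by edgeR, 0.252). Eed cKO library 2 stood apart in Xist, at 8.55 CPM against 5297 to 7757 CPM in the other 5 libraries. The ribosomal precursor Rn45s took 2.18% to 5.24% of counts in control and 6.78% to 7.26% in Eed cKO. The basal keratinocyte markers Krt5, Krt14, Trp63, Itga6, Itgb4 and Col17a1 summed to 32689 to 38884 CPM in control and 28606 to 37537 CPM in Eed cKO, with 0 of 6 called. These defining genes of the labelled cell type were thus abundant in every library. Krt5 made up most of each sum. Trp63 and Col17a1 were lower in every Eed cKO library than in any control library (log2 difference -0.37 for each, edgeR adjusted p 0.266 and 0.278). In a bulk sample, fewer cells of a type and less RNA per cell cannot be told apart.

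Across the 10 genes, 1 rose in Eed cKO, 0 fell and 9 did not pass (edgeR quasi-likelihood test, p adjusted by Benjamini-Hochberg across the 14700 genes, threshold 0.05). The gene that rose was Heyl. Over all genes tested 4.21% passed, 3.39% as higher and 0.816% as lower in Eed cKO, so 1 of 10 differs little from the background. At an unadjusted p under 0.05 there were 5 of the 10 genes, Notch2, Notch3, Jag1, Hes1 and Heyl, against 14.9% of all genes, and all 5 had positive log2 fold changes. The median log2 fold change was 0.33 over the 10 genes and -0.01 over all genes tested, and 8 of the 10 were positive. The groups' ranges over 3 libraries did not overlap for 4 genes, Notch2, Jag1 and Heyl above control and Rbpj below it, where 20.3% of all genes tested had ranges apart, 11.0% above and 9.22% below. Calls over all genes, 499 higher and 120 lower, fell whichever library was left out, to 302 to 456 higher and 35 to 118 lower. The largest drops were to 323 and 35 without control 3 and to 302 and 44 without Eed cKO 3. The lower genes became 59 without control 2 and 51 without Eed cKO 2. Each such fit also has fewer libraries, so the share of any particular library in the drop was not told apart.

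**Figure D1:**
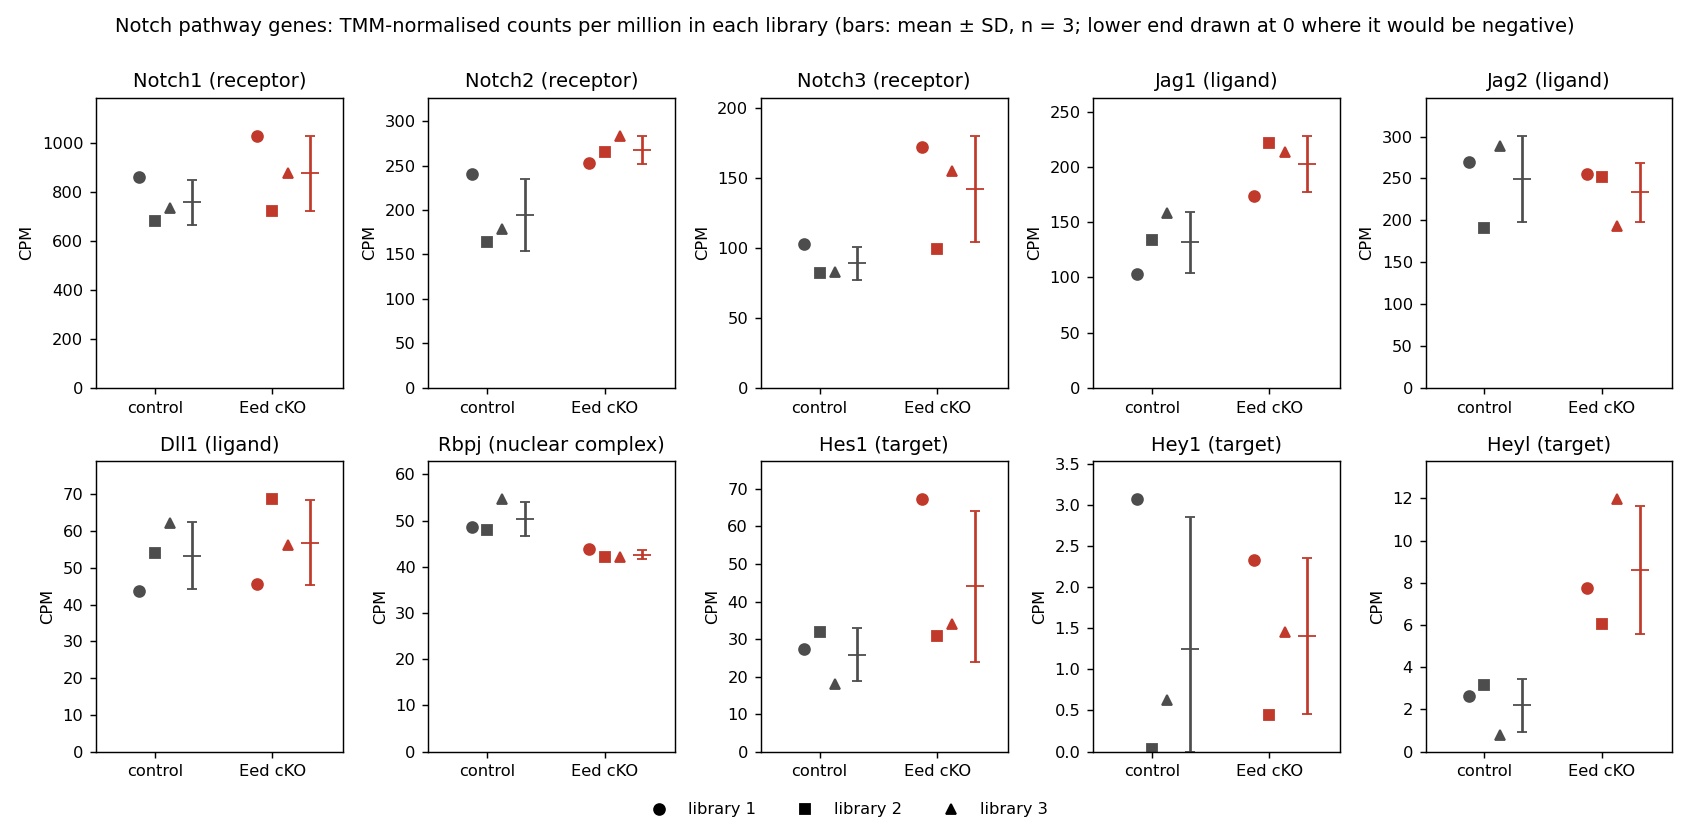
TMM-normalised CPM (y axis, from 0, a separate scale for each gene) of the 10 Notch pathway genes in each control (grey) and Eed cKO (red) library, with symbols for libraries 1 to 3 and bars for the mean ± SD of 3 libraries. Heyl, Jag1 and Notch2 lie higher in every Eed cKO library than in any control library, and Rbpj lies lower. Notch1, Notch3, Jag2, Dll1, Hes1 and Hey1 overlap.

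Among the receptors the point estimate was positive for all 3, and none was called. Notch1 (chromosome 2, 26457903 to 26516663, GRCm38), the main epidermal receptor, had 859.8, 681 and 734 CPM in control libraries 1, 2 and 3 and 1029, 722 and 879 CPM in Eed cKO libraries 1, 2 and 3. The groups overlapped, with Eed cKO 2 inside the control range. Control averaged 758 ± 91.8 CPM and Eed cKO 876 ± 153 CPM (mean ± SD, n = 3 libraries), a log2 fold change of 0.21 with a 95% interval of -0.16 to 0.58 (edgeR adjusted p 0.667). The interval leaves room for a change of up to 1.49-fold and holds no doubling.

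Notch2 (chromosome 3, 98013527 to 98150361), a second receptor of the same architecture, had 241, 165 and 179 CPM in control and 253, 265 and 284 CPM in Eed cKO. The groups did not overlap, but control 1 came close to Eed cKO 1. The log2 fold change was 0.46 ± 0.17 (SE; 95% interval 0.08 to 0.83, edgeR adjusted p 0.205), which did not pass. Notch2 was called in 1 of 16 alternatives, the fit that left out both libraries numbered 1 (log2 fold change 0.68, edgeR adjusted p 0.0424).

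Notch3 (chromosome 17, 32120820 to 32166852), the least abundant of these 3 receptors, had 103, 81.8 and 82.8 CPM in control and 172, 99.5 and 155 CPM in Eed cKO. Eed cKO 2 lay just under the highest control library, and the other Eed cKO libraries were well above it. The means were 89.1 ± 11.8 and 142 ± 38.1 CPM, and the log2 fold change was 0.68 ± 0.21 (95% interval 0.23 to 1.12, edgeR adjusted p 0.0960). Notch3 passed without Eed cKO 2 (log2 fold change 0.89, edgeR adjusted p 0.0257) and with DESeq2 (adjusted p 0.0293). Annotated exons of Notch1, Notch2 and Notch3 share 9.76%, 5.02% and 6.03% of their bases with other genes on either strand, so their counts are a little uncertain. Notch4, the remaining receptor and mainly an endothelial one, stayed between 0.391 and 3.67 CPM in all 6 libraries (log2 difference -0.037, adjusted p by edgeR 0.992), a sign that turned positive in 6 of 16 alternatives.

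None of the 3 ligand genes was called, and of these only Jag1 had groups that did not overlap. Jag1 (chromosome 2, 137081456 to 137116644) encodes Jagged1. It had 103, 134 and 159 CPM in control and 174, 221 and 214 CPM in Eed cKO. Every Eed cKO library was above every control library, and the means were 132 ± 27.8 and 203 ± 25.5 CPM. The log2 fold change of 0.62 ± 0.19 (95% interval 0.22 to 1.02) did not pass (edgeR adjusted p 0.0859), although it did with DESeq2 (adjusted p 0.0277) and without a filter on low counts (edgeR adjusted p 0.0249).

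Jag2 (chromosome 12, 112907819 to 112929776), which encodes the second Jagged ligand, had 269, 191 and 288 CPM in control and 256, 252 and 193 CPM in Eed cKO. The groups overlapped over most of their range, and the log2 fold change was -0.10 (95% interval -0.50 to 0.31, edgeR adjusted p 0.899). Its sign turned positive without control 3 (0.019) or without Eed cKO 3 (0.024). Dll1 (chromosome 17, 15367354 to 15376872), a Delta-like ligand of basal keratinocytes, had 43.8, 54.1 and 62.1 CPM in control and 45.6, 68.7 and 56.3 CPM in Eed cKO, again with overlap. Its log2 fold change was 0.09 (95% interval -0.35 to 0.53, edgeR adjusted p 0.911), and it was -0.034 without control 1 and -0.058 without Eed cKO 2. Dll1 shares 20.5% of its exonic bases with another gene. The other Delta-like genes were nearly silent: Dll4, an endothelial ligand, had 0 to 0.911 CPM and Dll3 had 10 counts over all 6 libraries.

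**Figure D2:**
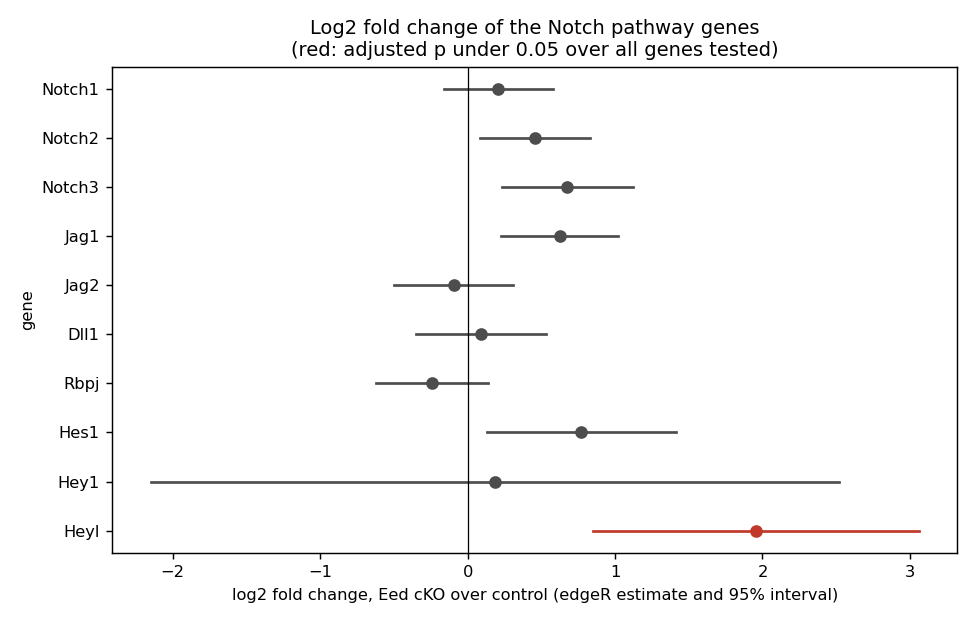
Log2 fold change of Eed cKO over control (x axis) for each of the 10 genes (y axis), as edgeR estimates with 95% intervals, with the gene that passed in red. The interval of Heyl runs from 0.85 to 3.06, those of Notch2, Notch3, Jag1 and Hes1 lie above 0 without a call, and that of Hey1 spans -2.15 to 2.52.

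The promoters of these genes are shown because PRC2 is known for occupying promoters rich in CG dinucleotides. RefSeq promoter windows on GRCm38.p6, from 250 bases before to 50 bases after a transcription start, were matched by symbol for 7 of the 10 genes (9 windows), with none matched for Hes1, Hey1 and Heyl. The printed stretches belong to Notch2, Notch3 and Jag1, the 3 receptor and ligand genes with the largest log2 fold changes. Each reads 5′ to 3′ on the gene's own strand, ends before the RefSeq start and the first annotated exon of the gene, and has every CG dinucleotide in capitals. The stretches are chr3:98013288-98013526 (plus strand) for Notch2, chr17:32166891-32167140 (minus strand) for Notch3 and chr2:137116645-137116770 (minus strand) for Jag1.
Notch2: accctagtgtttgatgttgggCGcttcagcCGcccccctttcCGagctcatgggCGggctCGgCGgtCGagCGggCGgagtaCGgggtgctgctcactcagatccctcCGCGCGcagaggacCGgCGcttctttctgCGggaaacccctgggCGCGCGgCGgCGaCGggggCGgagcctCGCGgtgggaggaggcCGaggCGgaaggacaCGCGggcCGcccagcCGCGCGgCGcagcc
Notch3: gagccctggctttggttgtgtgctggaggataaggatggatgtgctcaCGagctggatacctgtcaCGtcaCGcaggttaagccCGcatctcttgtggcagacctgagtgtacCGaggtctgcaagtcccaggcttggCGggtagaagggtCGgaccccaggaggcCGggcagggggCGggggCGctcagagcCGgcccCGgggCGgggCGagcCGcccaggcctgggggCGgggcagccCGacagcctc
Jag1: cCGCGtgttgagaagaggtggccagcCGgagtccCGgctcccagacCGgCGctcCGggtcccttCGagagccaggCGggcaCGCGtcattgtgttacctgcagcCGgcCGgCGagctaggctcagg

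The printed Notch2 stretch holds 34 CG dinucleotides in 239 bases, that of Notch3 17 in 250 and that of Jag1 14 in 126. In the whole windows of 300 bases the median over 32851 windows was 7 CG dinucleotides. Notch1 had 23, Notch2 41, Notch3 25, Jag1 22, Jag2 63, Dll1 24 and 15 in its 2 windows, and Rbpj 26 and 28. All 9 windows were thus above that median, and Jag2, whose level overlapped between the groups, held the most CG. The Rbpj core GTGGGAA was searched on both strands, and none of the 9 windows held it, against 6.38% of all windows. The N box CACNAG, the element that Hes factors bind, was found on either strand in the windows of Notch1, Notch2 and Notch3 and in 1 window of Dll1, against 42.5% of all windows. No window held the E box CACGTG, which 7.15% of all windows hold. The E box letters do not match the N box pattern, and a match is only a description of these letters.

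Rbpj (chromosome 5, 53466152 to 53657362) encodes the DNA-binding protein on which all 4 receptors converge. It had 48.5, 47.9 and 54.6 CPM in control and 43.8, 42.0 and 42.0 CPM in Eed cKO. The Eed cKO libraries were all lower than the control ones and lay close together. The log2 fold change was nevertheless small, at -0.24 (95% interval -0.62 to 0.14, edgeR adjusted p 0.612), and kept its sign in 16 of 16 alternatives. The coactivators that complete the nuclear complex pointed the same way without passing, with log2 fold changes of -0.21 for Maml1, -0.34 for Maml2 and -0.28 for Maml3 (edgeR adjusted p 0.713, 0.414 and 0.437).

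Of the 3 targets all had positive log2 fold changes and 1, Heyl, was called. Whether their responses differ from one another was not shown, since their 95% intervals overlap. Heyl (chromosome 4, 123233556 to 123249875), a repressor of the Hey subfamily, had 2.66, 3.16 and 0.781 CPM in control (71, 99 and 20 counts) and 7.76, 6.06 and 12.0 CPM in Eed cKO (213, 151 and 247 counts). The lowest Eed cKO library was above the highest control library. Heyl rose from 2.20 ± 1.25 to 8.59 ± 3.03 CPM, a log2 fold change of 1.96 ± 0.51 (SE; 95% interval 0.85 to 3.06) with an edgeR adjusted p of 0.0483. That call was close to the threshold. It was lost without control 1 (adjusted p 0.0703), control 3 (0.127), Eed cKO 1 (0.0700), Eed cKO 2 (0.0743) or Eed cKO 3 (0.242), and held without control 2 (0.0454). The log2 fold change stayed between 1.55 (without control 3) and 2.33 (without control 2) in those fits. It was also lost with upper-quartile scaling (0.0522), after thinning to the smallest library (0.0508) and without both libraries numbered 1 (0.0759), in all in 8 of 16 alternatives, while DESeq2 gave an adjusted p of 0.00299 and limma-voom one of 0.0466.

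Hes1 (chromosome 16, 30064384 to 30067796), the best known target of Notch in epidermis, had 27.3, 32.0 and 18.1 CPM in control and 67.3, 30.7 and 34.1 CPM in Eed cKO. A single library carried most of the difference: Eed cKO 1 was highest, while Eed cKO 2 lay inside the control range. The means were 25.8 ± 7.05 and 44.0 ± 20.2 CPM, and the log2 fold change of 0.77 ± 0.30 (95% interval 0.13 to 1.41, edgeR adjusted p 0.216) became 0.33 without Eed cKO 1 (edgeR adjusted p 0.608). The immediate early genes Fos, Fosb, Jun, Junb, Egr1, Atf3 and Ier2, which answer to tissue dissociation, were summed in each library. The sum was 2096 CPM in Eed cKO 1, the highest of the 6 libraries, and 1951 CPM in control 3, which had the least Hes1. Egr1 made up most of each sum. Egr1 and Junb were highest in Eed cKO 1, Fosb in control 1, and Fos, Jun, Atf3 and Ier2 in control 3. Their part in the Hes1 values was not tested.

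Hey1 (chromosome 3, 8663359 to 8667256), the founding Hey repressor, was barely expressed and scattered widely. It had 3.07, 0.0320 and 0.625 CPM in control and 2.33, 0.442 and 1.45 CPM in Eed cKO, from 1 to 82 counts per library. The log2 fold change of 0.19 had a 95% interval of -2.15 to 2.52 (edgeR adjusted p 0.971), which holds both a doubling and a halving. Its sign turned when control 2 (-0.37), control 3 (-0.13) or Eed cKO 1 (-0.39) was left out. The endothelial markers Pecam1, Cdh5, Kdr, Tek, Emcn and Tie1 also differed widely between libraries, at 30.7, 4.98 and 36.0 CPM in control and 34.6, 7.10 and 8.47 CPM in Eed cKO when summed, with 0 of 6 called. Control 2 was lowest in both Hey1 and that sum, while control 3, highest in the sum, had little Hey1. The part of endothelial RNA in the Hey1, Notch4 and Dll4 values was not tested. Of the remaining Hes and Hey genes, Hes5 had no count in any library, which allows 0.0959 to 0.145 CPM per library (3 counts, counting error only), Hey2 had 7 counts in all, and Hes6 overlapped between groups (5.65 ± 2.59 and 5.35 ± 2.88 CPM). Nrarp, a Notch-induced inhibitor of the receptor complex, had 43.9 ± 4.68 and 43.0 ± 2.76 CPM (log2 difference -0.030, adjusted p by edgeR 0.972), with a sign that turned in 2 of 16 alternatives, and 79.4% of its exonic bases overlap another gene.

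Levels of different genes were compared as CPM per kilobase of exon, a scale that allows for transcript length. Notch1 was the most abundant of the 10 genes in control, at 53.3 ± 6.45 CPM per kilobase, 2.95 times the mean of Notch2 and 4.84 times that of Notch3. Jag2 followed at 35.8 ± 7.42 and Jag1 at 22.6 ± 4.77, and the ranges of Notch1, Jag2 and Jag1 did not overlap. Jag1, Notch2 (18.1 ± 3.76), Hes1 (12.7 ± 3.46), Dll1 (12.6 ± 2.17) and Notch3 (11.0 ± 1.46) formed a run in which each neighbour overlapped the next. Rbpj was lower, at 3.95 ± 0.291, and apart from Notch3 above it and Heyl below it. Heyl (0.430 ± 0.245) and Hey1 (0.380 ± 0.493) were at the bottom and not distinct from each other.

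In Eed cKO the order of the means per kilobase of exon had Jag1 beside Jag2 and Notch3 above Dll1. Jag1 (34.8 ± 4.38 CPM per kilobase) now overlapped Jag2 (33.5 ± 5.02), whereas in control Jag2 had been 1.58 times as abundant and apart. Notch3 (17.6 ± 4.71) came above Dll1 (13.5 ± 2.74), with overlap in both groups. Heyl (1.68 ± 0.594) was apart from Hey1 (0.431 ± 0.290). Notch1 stayed at the top, at 61.6 ± 10.8, 2.48 times Notch2 and 3.50 times Notch3. With the longest annotated transcript in place of all exons, Hey1 (0.512) came above Heyl (0.485) in control, and Rbpj went from 3.95 to 9.18. On that length the Eed cKO means were 45.7 for Jag2 and 36.2 for Jag1 (48.9 and 23.5 in control). The mean of Hes1 (30.0) came above that of Notch2 (25.5), but Hes1 itself was above Notch2 only in Eed cKO 1. In Eed cKO the ranges of Jag1 and Jag2 overlapped on both lengths, so only the order of their means depends on the length used.

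**Figure D3:**
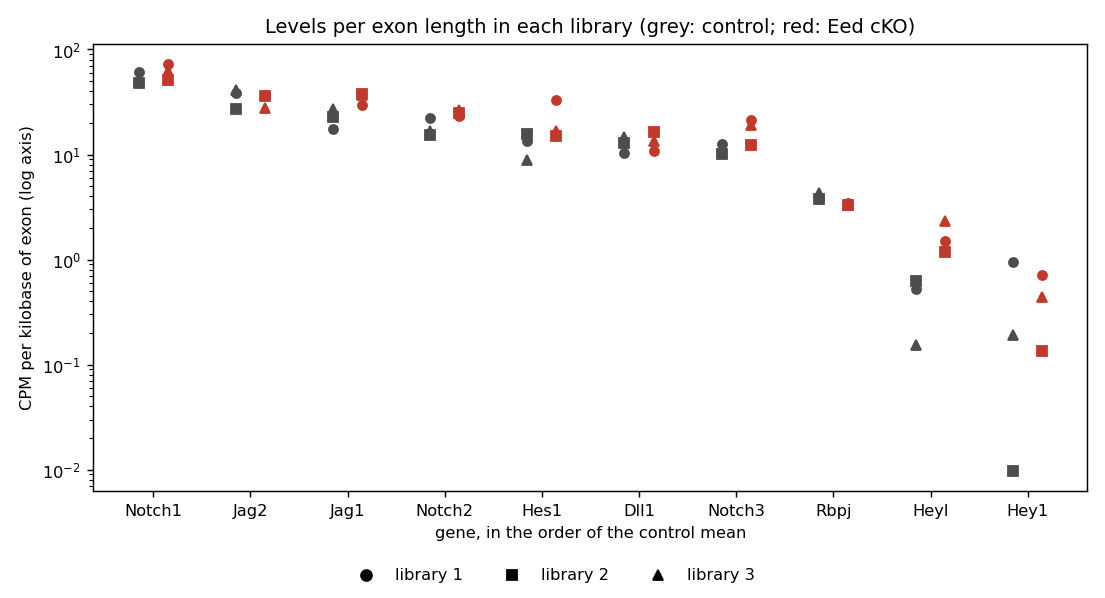
TMM-normalised CPM per kilobase of exon (y axis, log scale) of the 10 genes (x axis, in the order of their control means) in each control (grey) and Eed cKO (red) library. Notch1 is highest in both groups, and Heyl and Hey1 lie far below the others. Jag1 overlaps Jag2 in Eed cKO. Per longest transcript the 2 also overlap there, with a lower mean for Jag1 (36.2 against 45.7).

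The rest of the pathway was followed in a list of 67 further genes, grouped by role, of which 58 were tested. One of them rose, 1 fell and 56 did not pass, where 3.39% of all genes tested were called higher and 0.816% lower. The median log2 fold change of the list was -0.06, beside -0.01 over all genes. Both called genes, Krt10 and Ascl2, belong to the 6 epidermal genes downstream of Notch. None of the 52 tested genes of the signalling machinery itself passed. At an unadjusted p under 0.05 there were 10 of the 58 genes, against 14.9% of all genes.

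By role, the 10 proteases that free the receptor had a median log2 fold change of 0.18 and 6 positive values. The largest, for the gamma-secretase subunit gene Aph1a, was 0.88, from 7.64 ± 0.137 to 14.0 ± 1.75 CPM (edgeR adjusted p 0.105), with groups that did not overlap. The sheddase genes Adam10 (93.8 and 117 CPM on average) and Adam17 (97.7 and 96.6 CPM) overlapped between groups. The 4 tested Fringe and O-glycosylation genes were all slightly negative (median -0.12), among them the Fringe gene Lfng at -0.37 (edgeR adjusted p 0.598), whose estimate was 0.0035 without control 2. The 6 ligand E3 ligase genes had a median of -0.22, with Neurl1b, a Neuralized ligase, at 37.5 ± 2.42 and 25.1 ± 4.46 CPM (adjusted p by edgeR 0.159, log2 fold change -0.58).

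The 8 tested genes of receptor turnover, such as Numb, Itch and Fbxw7, had a median of -0.11, and each lay between -0.24 and 0.20. Of the 9 corepressor genes, Spen, which holds Rbpj in its repressive state, had 522, 313 and 340.1 CPM in control and 266, 246 and 238 CPM in Eed cKO, with all Eed cKO libraries below control (log2 fold change -0.65, edgeR adjusted p 0.0856). Tle1, a Groucho corepressor recruited by Hes proteins, had 15.1, 15.6 and 15.2 CPM in control and 19.5, 28.9 and 31.4 CPM in Eed cKO, all above control (log2 fold change 0.79, edgeR adjusted p 0.0832). Neither passed. With Rbpj, the 10 nuclear complex genes had a median of -0.26 and 2 positive values, and its extremes were the acetyltransferase gene Kat2b at -0.60 (edgeR adjusted p 0.215) and the Rbpj paralogue Rbpjl at 1.94 (edgeR adjusted p 0.610). Rbpjl rests on 15, 0 and 0 counts in control and 3, 30 and 18 in Eed cKO, which overlap. Aph1a, Adam10, Adam17, Neurl1b, Spen, Tle1, Kat2b, Rbpjl and Hes6 were chosen after their values were seen.

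**Figure D4:**
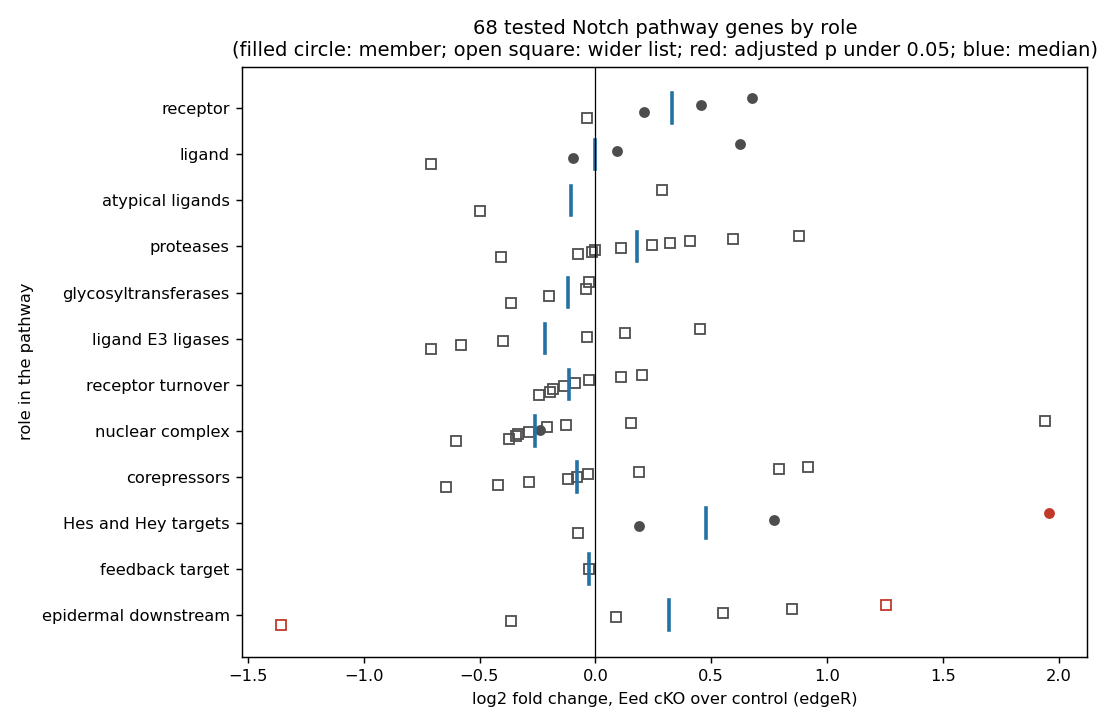
Log2 fold change of Eed cKO over control (x axis) for the 68 tested pathway genes, in rows by role (y axis), with filled circles for the 10 genes, open squares for the wider list, red for genes that passed and blue bars for the median of each role. Only Heyl and the downstream genes Krt10 and Ascl2 are red, and most genes of the machinery lie within 0.5 of 0.

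The epidermal genes downstream of Notch moved in both directions. Krt10, a spinous keratin, had 841, 754 and 946 CPM in control and 1551, 2428 and 2075 CPM in Eed cKO, with the groups far apart. Krt10 rose by 1.25 ± 0.19 (SE) on the log2 scale (adjusted p by edgeR, 0.00126) and was called in 16 of 16 alternatives. Its partner Krt1 had 1658, 2663 and 2360 CPM in control and 2575, 4247 and 5208 CPM in Eed cKO, overlapping through Eed cKO 1 (log2 fold change 0.85, edgeR adjusted p 0.0711), and passed without Eed cKO 1 (edgeR adjusted p 0.0105).

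Ascl2, a basic helix-loop-helix factor gene, had 11.6, 18.4 and 12.4 CPM in control and 6.52, 4.01 and 6.05 CPM in Eed cKO. Every Eed cKO library was lower, and Ascl2 fell by 1.36 on the log2 scale (SE 0.33, edgeR adjusted p 0.0309). The call was lost without control 2 (adjusted p 0.146), control 3 (0.0691), Eed cKO 2 (0.141) or Eed cKO 3 (0.0874). Cdkn1a, the p21 cell cycle inhibitor gene, had 175 ± 36.7 and 256 ± 91.8 CPM (log2 fold change 0.55, edgeR adjusted p 0.282), and Trp63, the basal master factor gene that Notch is known to oppose, 2032 ± 60.2 and 1577 ± 165 CPM (-0.37, adjusted p 0.266).

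Markers of other cells were summed in each library, since several pathway genes are used by more than one skin cell type. The suprabasal list (Krt1, Krt10, Lor, Ivl, Sbsn and Krtdap) summed to 3120 to 4170 CPM in control and 4903 to 7771 CPM in Eed cKO, with 1 of 6 genes called, Krt10. Without Krt10 these sums were 2278 to 3416 CPM and 3352 to 5696 CPM, which overlap. Krt1 and Krt10 together made up most of each sum of the 6 genes. Sbsn was also higher in every Eed cKO library without passing (edgeR adjusted p 0.182). Krt1, Lor, Ivl and Krtdap overlapped between groups, and Krtdap was lower on average in Eed cKO (573 and 513 CPM). The mural list (Acta2, Rgs5, Pdgfrb, Cspg4, Myh11 and Tagln) summed to 79.9 to 119.9 CPM in control and 154 to 183 CPM in Eed cKO. Between groups the mural sum thus had the direction of Heyl and of the Notch3 mean. Within control it did not follow them: the sum was 79.9, 94.0 and 119.9 CPM in libraries 1, 2 and 3. Heyl was lowest in control 3 and Notch3 highest in control 1. In Eed cKO the sum and Notch3 were highest in library 1, and Heyl in library 3. Of the 6 mural genes 1 was called higher, Cspg4, and 0 were at 0 in all libraries. Cspg4 made up most of each mural sum. Without Cspg4 the sum was 14.1, 14.7 and 15.0 CPM in control libraries 1, 2 and 3. In Eed cKO libraries 1, 2 and 3 it was 22.2, 17.4 and 22.5 CPM. Within Eed cKO this smaller sum was highest in library 3 and lowest in library 2, as was Heyl. Within control it was highest in library 3, where Heyl was lowest. Pdgfrb (0.195 to 0.479 and 0.722 to 1.89 CPM, adjusted p by edgeR 0.288, log2 fold change 2.03) and Acta2 (4.88 to 4.92 and 6.01 to 9.92 CPM) were also higher in every Eed cKO library without passing, while Rgs5 (1.37 to 2.05 and 0.602 to 3.58 CPM), Myh11 and Tagln overlapped. The part of mural RNA in the Heyl and Notch3 values was not tested.

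Of the 6 Merkel cell markers 4 were tested and 2, Sox2 and Isl1, were called higher. The 6 summed to 0.195 to 1.82 CPM in control and 7.75 to 14.1 CPM in Eed cKO. Sox2 and Isl1 had 0 counts in every control library, so only their Eed cKO counts let them be tested. In Eed cKO libraries 1, 2 and 3 Sox2 had 185, 22 and 31 counts and Isl1 135, 73 and 26. Krt8 overlapped between groups. Fibroblast markers, with 0 of 6 called, summed to 385 to 579 CPM in control and 566 to 649 CPM in Eed cKO. The inner root sheath and hair matrix list, from follicle cells that also use Notch, had sums that overlapped between groups (31.1 to 72.0 and 27.1 to 40.1 CPM). Tchh made up most of each sum. Of the 6 genes 1 was called lower, Krt71 (log2 fold change -2.36). Krt25 (-1.81, edgeR adjusted p 0.147) and Krt27 (-2.59, edgeR adjusted p 0.101) were also lower in every Eed cKO library without passing. Tchh, Krt28 and Krt73 overlapped. The immune list also overlapped (84.7 to 298 and 36.8 to 220.2 CPM), with 1 of 4 tested genes called lower, Cx3cr1. Of the sort's own genes, Epcam had 64.5, 104 and 77.4 CPM in control and 119.8, 151 and 148 CPM in Eed cKO and was called higher (log2 fold change 0.77, edgeR adjusted p 0.0433), while Ly6a and Itga6 were not called. Whether a shift in the sorted population had a part in the Jag1, Notch3 and Heyl values was not tested.

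**Figure D5:**
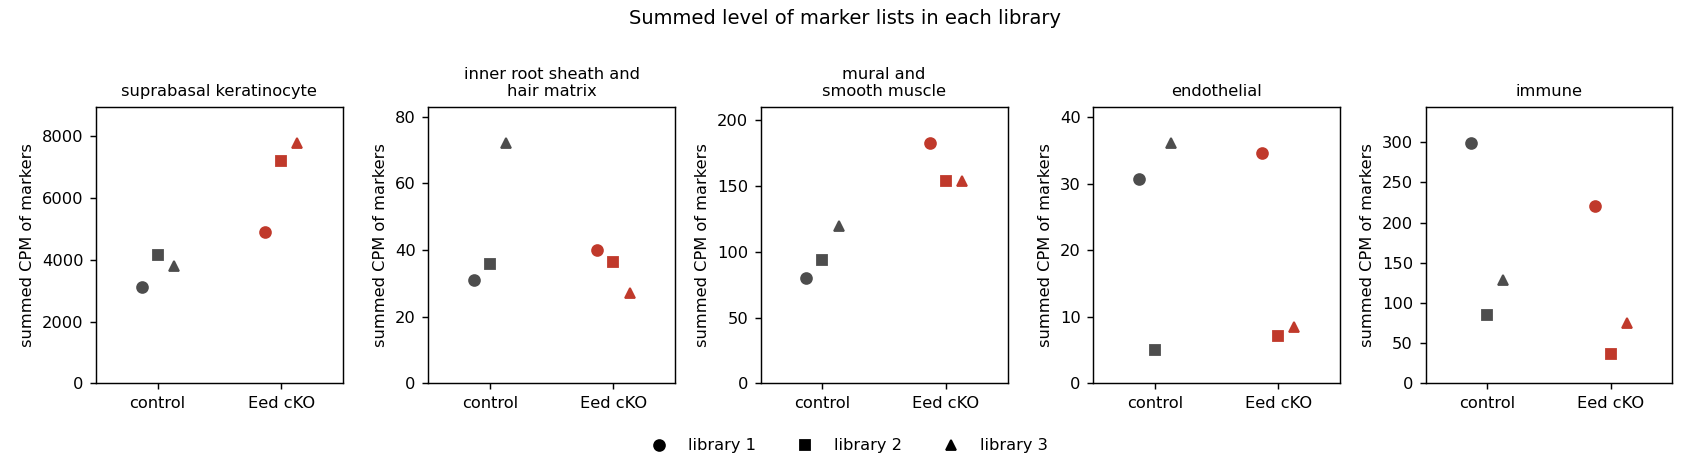
Summed CPM (y axis, from 0, a separate scale for each list) of 5 lists of marker genes in each control (grey) and Eed cKO (red) library. The suprabasal and mural sums are higher in every Eed cKO library than in any control library, and the other 3 overlap. Of the lists not drawn, the Merkel sum is also higher in every Eed cKO library. So is the sum of the sort's genes Epcam, Ly6a and Itga6 (1080 to 1262 CPM in control and 1314 to 1476 CPM in Eed cKO).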

How the data were processed

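Per the labels' protocols, RNA from the sorted cells was amplified and read from one end. The authors deposited a table of raw counts by gene symbol for each library, without normalisation. Tools in the submitters' processing notes, given without roles, are HTSeq 0.6.1, TopHat2 2.0.13, DESeq2 1.6.3 and Cufflinks 2.2.1, with build mm10. Which annotation and strand setting were used is not given there.

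The tests were run with edgeR 4.0.16 (R 4.3.3). Library totals ran from 20998149 to 29998531. filterByExpr kept 14700 of 24453 symbols. TMM scaled the libraries, and a quasi-likelihood test of genotype used Benjamini-Hochberg adjustment over all genes kept. Log2 fold changes are shrunk by edgeR's prior count of 0.125, and SE is the log2 fold change over the root of F. Alternatives were RLE and upper-quartile scaling, 2 other filters, DESeq2 1.42.0, limma-voom (limma 3.58.1), a replicate block, thinning, leaving out Rn45s, and leaving out libraries. The procedure was tested on simulated data. Coordinates and exon lengths are from GENCODE M21 (GRCm38), and promoters from RefSeq on GRCm38.p6. Figures used Python 3.11.15 and matplotlib 3.10.9.

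The 10 genes, the wider list, the markers and the tests were chosen with earlier results of these data known. Genes were named by a rule: the 10 members, called genes of the wider list, a fixed set of pathway and epidermal genes, Eed, and markers moving with a member. One gene that the rule names is not reported here. Amplified reads do not each stand for a molecule, so floors cover counting error only.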

Additional observations from a re-analysis of the deposited data

How the results depend on the processing

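The number of the 10 genes called higher was 1 in the main analysis, 0 with upper-quartile scaling and after thinning, 3 with DESeq2 (Notch3, Jag1 and Heyl), 4 with no filter on low counts (those and Hes1), and 0 to 1 when 1 library was left out. None was called lower under any alternative run. The wider list had 1 higher and 1 lower call, which became 3 and 2 with no filter, 4 and 2 with DESeq2, 2 higher without both libraries numbered 1, and 1 to 3 higher and 0 to 1 lower when 1 library was left out. Over all genes, 499 higher and 120 lower calls became 764 and 270 with DESeq2, 257 lower with no filter, and 302 to 456 higher and 35 to 118 lower when 1 library was left out. Fits with 2 libraries in an arm take the spread from all libraries. With 1 library left out, log2 fold changes that changed sign ranged from -0.24 to 0.024 for Jag2, -0.058 to 0.23 for Dll1, -0.39 to 2.11 for Hey1, -0.51 to 1.18 for Notch4, -0.075 to 0.056 for Nrarp and -0.62 to 0.0035 for Lfng. Notch4 was also positive with limma-voom (0.47) and without both libraries numbered 1 (0.80). Per length of the longest transcript, control levels were 79.9 CPM per kilobase for Notch1, 48.9 for Jag2, 14.9 for Dll1, 9.18 for Rbpj and 17.6 for Hes1. Of 382 values of 24 named genes under the alternatives, 340 kept direction and side of the threshold, 14 newly passed, 12 no longer passed and 16 changed sign. Among these 24 genes, Hey1 (1 to 82 counts per library), Notch4 (10 to 98) and Dll4 (0 to 25) had the largest standard errors. Some genes given above that are not among the 24, such as Rbpjl (SE 1.42), had larger ones.

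Nothing in the labels says that a shared replicate number marks a shared litter or day. Deviations from the group means correlated at 0.27, 0.11 and 0.015 for pairs 1, 2 and 3, and at -0.195 to 0.109 for libraries with unlike numbers. Pair 1 was the highest, but control 3 correlated more with Eed cKO 2 (0.094) than with Eed cKO 3. These values do not settle whether the libraries are paired. As the labels state no pairing, the numbers were not taken as pairs in the main fit. With a replicate block, 3 of the 10 genes were called higher (Notch3, Jag1 and Heyl), 2 genes of the wider list higher and 2 lower, and 269 genes in all lower, and the log2 fold change of Notch4 was 0.39.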

Other observations

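Ratios of 2 genes' counts within a library need no scaling between libraries. The 6 ratios below were chosen after the data were seen, and with 3 against 3 libraries the smallest two-sided exact permutation p is 0.1. Notch3 over Notch1 counts were 0.119, 0.120 and 0.113 in control and 0.168, 0.138 and 0.177 in Eed cKO, without overlap (exact permutation p 0.1, adjusted 0.30 over 6 ratios). Against Notch2 this did not hold: Notch3 over Notch2 counts were 0.427, 0.497 and 0.463 in control and 0.682, 0.375 and 0.547 in Eed cKO, with Eed cKO 2 the lowest of the 6 libraries (exact permutation p 0.6, adjusted 0.60). Heyl over Hes1 counts were 0.0974, 0.0989 and 0.0431 in control and 0.115, 0.197 and 0.350 in Eed cKO, also without overlap (exact permutation p 0.1, adjusted 0.30). Jag1 over Jag2 counts were 0.383, 0.701 and 0.550 in control and 0.680, 0.879 and 1.11 in Eed cKO (exact permutation p 0.2, adjusted 0.30), with overlap. These ratios are not per length, so they do not say which gene is more abundant. Notch2 over Notch1 (exact permutation p 0.2, adjusted 0.30) and Dll1 over Jag2 (exact permutation p 0.6, adjusted 0.60) overlapped between groups.

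Dtx1, which encodes a Deltex ubiquitin ligase of Notch, had too few counts to be tested and was chosen after its values were seen. It had 0 counts in all control libraries and 40, 4 and 2 counts in Eed cKO libraries 1, 2 and 3. Pooled over each group, that is 17.6-fold above a floor of 3 counts over the control group (0.0359 CPM). Of the 46 counts 40 lie in Eed cKO 1. The value allows for counting error in control only and not for the spread between libraries, so it is not a lower bound.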
